A study of Mus musculus with 3 samples.

Results

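The genes of sterol and fatty acid synthesis were examined in the mouse hepatoma line Hepa1c1c7 after transfection with an empty vector, a Mst1r vector or a Slpi vector. The list held 33 genes of the pathway controlled by the sterol regulatory element-binding proteins (SREBPs), chosen by name with earlier results of these data known: 18 enzymes of sterol synthesis, 6 regulators and carriers of sterols, and 9 enzymes of fatty acid synthesis. Of these, 32 were matched to a probe by accession, and all 32 were well above background on all arrays, of 19249 features that were so among 45608 on the array. The accession of the remaining gene, Acat2, matched no probe. Each gene is represented by its brightest probe.

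Each vector was represented by 1 sample on 1 array, so the vectors could not be compared by a test, and no difference below was checked in a replicate. The Mst1r vector held the open reading frame of Mst1r, which encodes a receptor tyrosine kinase, the Slpi vector that of Slpi, which encodes a secreted protease inhibitor, and the control was the plasmid pCMV6-Kan/Neo without insert. The cells were cultured for a day after transfection, no other treatment of them is named, and 100 ng of total RNA from each culture was labelled with Cy3. The cultures were transfected in bulk, so a lower level may stand for fewer expressing cells or for less RNA per cell, which cannot be told apart.

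SREBPs are transcription factors held in the membrane of the endoplasmic reticulum. When sterols are scarce, the escort protein SCAP brings them to the Golgi, where proteases release the active part that enters the nucleus, and when sterols are plentiful, INSIG proteins keep SCAP in the endoplasmic reticulum. The protein made from Srebf2 mainly drives sterol synthesis and that made from Srebf1 mainly drives fatty acid synthesis, and in the liver both pathways are a main source of lipid for the body.

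The promoters of the listed genes are shown first, since SREBPs act with the factors NF-Y and Sp1 at sites near the start of transcription. RefSeq promoters of build GRCm38.p6, from 250 bases before to 50 bases after the start, were matched by symbol for 26 of the 33 genes, with 35 promoters. The genes without an entry were Fdps, Fdft1, Sqle, Stard4, Scd1, Scd2 and Fads1. The letters TCACNCCA (like a sterol regulatory element), TCACGTGA (like an E-box that SREBPs also bind), CCAAT (bound by NF-Y) and GGGCGG (bound by Sp1) were searched on both strands. No matches of different motifs overlapped in these promoters, although the end of TCACNCCA can be the beginning of CCAAT.

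The letters TCACNCCA were found in 3 of the 35 promoters (8.57%). The share was 4.36% of all 32851 promoters of the same length and 3.8% of those of genes well above background on all arrays. The 3 were the promoters of Hmgcs1, Msmo1 and Srebf2. Their matches began 137, 177 and 162 bases before the start, respectively, all on the strand of the gene. The 250 bases before the start of these genes are printed 5′ to 3′ on the strand of the gene, with the match in capitals.

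Hmgcs1, chr13:119690101-119690350, plus strand: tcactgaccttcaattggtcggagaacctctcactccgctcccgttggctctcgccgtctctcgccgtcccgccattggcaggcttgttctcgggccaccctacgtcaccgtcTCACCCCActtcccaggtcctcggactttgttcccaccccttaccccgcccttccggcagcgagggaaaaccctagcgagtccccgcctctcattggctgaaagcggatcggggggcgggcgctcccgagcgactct

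Msmo1, chr8:64733579-64733828, minus strand: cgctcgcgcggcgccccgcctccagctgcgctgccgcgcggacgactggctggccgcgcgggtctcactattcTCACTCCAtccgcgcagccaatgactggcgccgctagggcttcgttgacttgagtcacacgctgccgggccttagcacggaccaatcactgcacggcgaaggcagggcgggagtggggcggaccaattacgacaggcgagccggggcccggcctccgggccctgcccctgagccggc

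Srebf2, chr15:82147019-82147268, plus strand: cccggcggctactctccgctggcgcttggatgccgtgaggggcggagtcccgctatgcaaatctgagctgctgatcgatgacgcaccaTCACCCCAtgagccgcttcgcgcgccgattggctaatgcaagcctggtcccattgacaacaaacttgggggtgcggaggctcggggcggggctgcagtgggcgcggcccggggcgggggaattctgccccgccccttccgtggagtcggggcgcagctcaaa

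CCAAT on either strand was found in 62.9% of the 35 promoters, against 37.4% of all promoters and 37.9% of those of genes well above background on all arrays. Among the sterol synthesis enzymes, 14 of 15 genes with a promoter held it, among the regulators 4 of 5 and among the fatty acid synthesis enzymes 3 of 6. GGGCGG was found in 74.3%, against 35.7% of all promoters and 59.5% of those of genes well above background on all arrays. TCACGTGA was found in no promoter of the list, against 0.974% of all promoters and 1.86% of those of genes well above background on all arrays. The promoters of Idi1 and Nsdhl, whose signals differed most between the Mst1r vector and the empty vector among the genes that were lower, and that of Tm7sf2, the only listed gene at least 1.5-fold higher, are shown with CCAAT or its reverse complement ATTGG in capitals.

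Idi1, chr13:8885356-8885605, plus strand: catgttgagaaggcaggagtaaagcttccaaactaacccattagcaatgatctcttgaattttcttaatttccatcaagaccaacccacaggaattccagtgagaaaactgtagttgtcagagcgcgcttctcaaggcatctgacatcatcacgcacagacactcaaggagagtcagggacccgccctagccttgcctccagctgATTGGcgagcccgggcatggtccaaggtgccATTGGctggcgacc

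Nsdhl, chrX:72918271-72918520, plus strand: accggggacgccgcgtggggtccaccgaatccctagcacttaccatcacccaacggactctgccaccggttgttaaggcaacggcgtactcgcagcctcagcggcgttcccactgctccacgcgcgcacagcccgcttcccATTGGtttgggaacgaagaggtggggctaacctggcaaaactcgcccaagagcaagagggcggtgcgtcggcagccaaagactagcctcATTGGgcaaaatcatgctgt

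Tm7sf2, chr19:6067851-6068100, minus strand: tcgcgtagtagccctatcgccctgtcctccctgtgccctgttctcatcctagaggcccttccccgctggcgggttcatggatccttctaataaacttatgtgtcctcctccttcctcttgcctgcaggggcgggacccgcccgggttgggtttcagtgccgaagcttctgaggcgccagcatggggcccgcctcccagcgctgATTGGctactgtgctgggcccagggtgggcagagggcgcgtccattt

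These promoters of Idi1, Nsdhl and Tm7sf2 were picked by the array differences of their genes, and each held CCAAT on 1 of its strands. CCAAT was found for 21 of the 26 listed genes with a promoter. Its part in the array differences was not tested. A match of letters is a description of the sequence and does not show that a factor binds there.

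Of the probes, between 46.7% and 48.5% were well above background on each array. The 75th percentile was 268.3 with empty vector, 228.8 with the Mst1r vector and 254.2 with the Slpi vector in processed signal, which is the background-subtracted intensity of a spot. After scaling to it, 7 spike-in probes differed from empty vector by 0.11 with the Mst1r vector and 0.24 with the Slpi vector in the mean (log2). The Mst1r probe was well above background on none of the arrays. The brighter Slpi probe had signals of 6459, 3843 and 6680 on the empty, Mst1r and Slpi vector arrays. Neither of these probes was higher on the array of its own vector than on the empty vector array by more than the error between spots. The brighter Slpi probe was 1.56-fold lower on the Mst1r vector array than on the Slpi vector array after scaling. The second Slpi probe, with signals of 106, 91.7 and 85.8, went the other way there, by 0.25 ± 0.24 (log2). It differed from empty vector by 0.02 ± 0.24 with the Mst1r vector and -0.23 ± 0.24 with the Slpi vector. The study reports overexpression of Mst1r in Hepa1c1c7 cells by real-time PCR, and its text names no such check for Slpi. The position of the Mst1r and Slpi probes in the transcript is not given in the sources used here. A probe outside the coding sequence would not read the vector, and the arrays are named below by their labels. In the upper rows of the arrays, which held 33.7% of the probes, some control spots that are dark elsewhere carried a signal.

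Markers of the cell line and of other liver cells were read on the same arrays. Of 11 hepatocyte and hepatoma markers, 6 were well above background on all arrays (Alb, Afp, Apoa2, Foxa2, Krt8 and Krt18) and 2, Ambp and Hnf4a, on none. Of 4 leukocyte and macrophage markers, Cd68 and Csf1r were so on all arrays and Ptprc and Adgre1 on none. Of 3 endothelial markers, Pecam1 was so on all arrays and Cdh5 and Kdr on none, and of 3 biliary markers, Krt19 and Sox9 on all and Epcam on none. Of 4 markers of stellate cells and fibroblasts, Col1a1, Acta2 and Pdgfrb were so on all arrays.

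The summed marker level, as signal over the 75th percentile of the array, was 931 with empty vector, 944 with the Mst1r vector and 921 with the Slpi vector for hepatocytes and hepatoma, and 48.3, 50.9 and 47.3 for stellate cells and fibroblasts. It was 12.5, 16.1 and 12.7 for leukocytes and macrophages, 2.36, 2.92 and 2.12 for biliary cells and 0.167, 0.187 and 0.122 for endothelial cells. All 5 sums were thus highest on the Mst1r vector array, some by little. Most of the hepatocyte and hepatoma sum came from Krt18 and Krt8, which differed from empty vector by -0.002 ± 0.081 and 0.028 ± 0.081 there. Pecam1, the only endothelial marker well above background on all arrays, differed by 0.07 ± 0.54, within the spot SD. Markers that were higher there than with empty vector by over 2 spot SD were Alb, the gene of serum albumin, by 0.57 ± 0.14, Csf1r, a receptor of macrophages, by 0.45 ± 0.12, Sox9, a factor of biliary cells, by 0.37 ± 0.16, and Col1a1, a collagen of fibroblasts, by 0.27 ± 0.04. The probes of Alb, Csf1r and Sox9 lay in the upper rows. Other markers of the same lists were lower there, all by less than 2 spot SD. Among them were Cd68 at -0.26 ± 0.16, Acta2 at -0.17 ± 0.14 and Krt19 at -0.66 ± 0.54. The part of these markers in the differences below was not tested.

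The Mst1r vector array had lower signals of most of the listed genes than the empty vector array, whereas the Slpi vector array was close to the empty vector array. Levels are given as the processed signal of each array and differences as log2 after subtraction of the 75th percentile of each array. The error after ± is the SD that repeated spots of one probe give for such a difference, called the spot SD. With the Mst1r vector, 29 of 32 genes were lower than with empty vector, against 55.5% of all features well above background on all arrays. The median difference was -0.45, which is 26.9% lower, against -0.03 over all features, of which 4.74% lay at or below the median of the list. Of the same genes, 11 were lower and 21 higher with the Slpi vector, and the median difference was 0.03, against 0.00 over all features. The count with the Slpi vector followed the scaling, from 1 of 32 lower under median scaling to 30 of 32 lower under spike-in scaling. Both comparisons share the empty vector array.

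**Figure D1:**
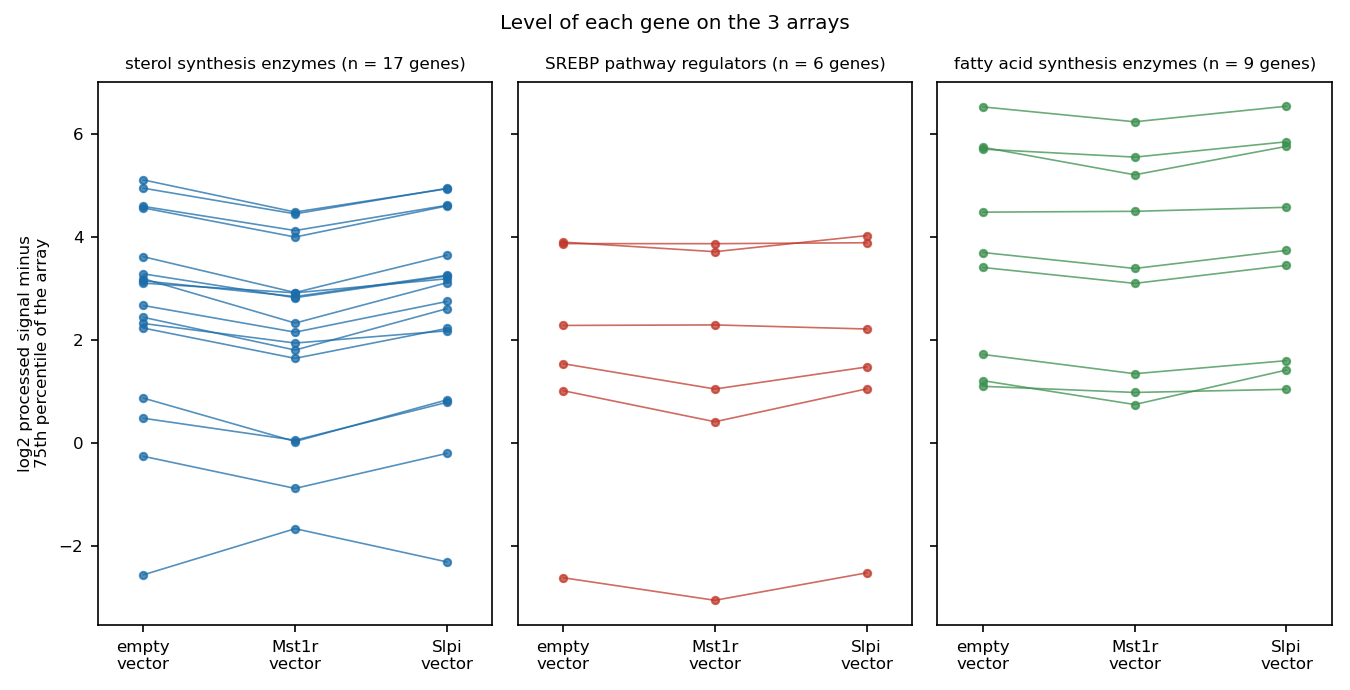
Level of each of the 32 measured genes on the empty vector, Mst1r vector and Slpi vector arrays, as log2 of the processed signal minus the 75th percentile of the array, with 1 line per gene and 1 panel per role. Most lines dip at the Mst1r vector array and come back at the Slpi vector array, and the lowest line of the left panel, Tm7sf2, goes the other way.

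Counts over a fixed fold separated the arrays in the same way. At least 1.5-fold lower signals with the Mst1r vector than with empty vector were found for 8 of 32 genes, against 2.61% of all features, and at least 1.5-fold higher signals for 1 gene, Tm7sf2, against 5.50% of all features. No listed gene was at least 1.5-fold lower or higher with the Slpi vector than with empty vector, against 1.62% and 1.49% of all features. No listed gene differed 2-fold in any comparison. Large folds were more common among dim features: the share of all features at least 1.5-fold lower with the Mst1r vector was 5.78% for mean signals between 16 and 64 and 0.453% between 4096 and 16384. Of the 8 listed genes, 7 had a mean signal over 256 and 1, Dhcr7, between 64 and 256.

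Against the error between spots, 23 of 32 genes were lower with the Mst1r vector than with empty vector by over 2 spot SD, against 7.66% of all features. Lower with the Slpi vector by over 2 spot SD were 0 of 32, against 1.98% of all features, and 0 of 32 were higher, against 2.28%. This limit is harder to pass for dim features, since the spot SD was 0.54 for the dim Insig1 and 0.12 for Idi1. All features include 3563 with mean signals between 16 and 64, where only 2 listed genes lay. The shares of all features were not taken at the signal level of the listed genes and are no matched reference for these counts. The spot SD covers the print and reading of the array and no variation between cultures.

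**Figure D2:**
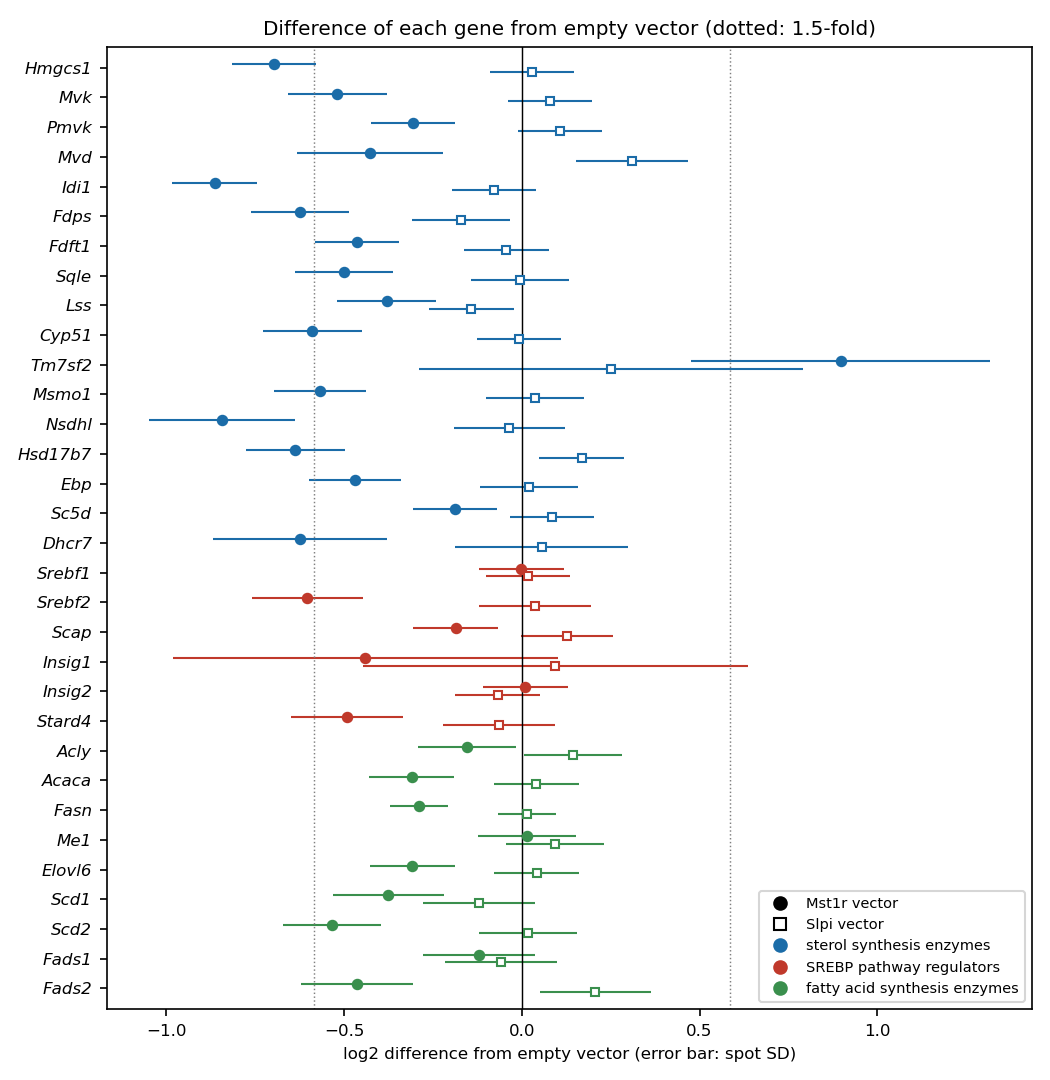
Log2 difference of each gene from the empty vector array for the Mst1r vector (filled circles) and the Slpi vector (open squares), coloured by role, with the spot SD as error bar and dotted lines at 1.5-fold. The filled circles lie left of 0 for 29 of 32 genes, from -0.86 for Idi1 to 0.90 for Tm7sf2, and the open squares lie between -0.17 for Fdps and 0.31 for Mvd.

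The listed genes were also read by position. The 25 genes whose brightest probe lay in the lower rows, away from the stray control spots, had a median difference of -0.44 with the Mst1r vector, 22 of them lower, and 0.03 with the Slpi vector. The 7 genes in the upper rows (Idi1, Nsdhl, Msmo1, Acaca, Elovl6, Fads1 and Fads2) had a median of -0.46 and 0.04, and all 7 were lower with the Mst1r vector. The median with the Mst1r vector was thus -0.44 without the upper rows, against -0.45 for all 32 genes.

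Of the 17 sterol synthesis enzymes measured, 16 were lower with the Mst1r vector than with empty vector and 15 were lower by over 2 spot SD, with a median of -0.52. The 7 that were at least 1.5-fold lower were Hmgcs1, Idi1, Fdps, Cyp51, Nsdhl, Hsd17b7 and Dhcr7, which lie at steps from the first part of the pathway to the last. The median of the 17 enzymes was 0.03 with the Slpi vector.

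Idi1 encodes the isomerase of the isoprenoid units from which sterols are built. Its processed signal was 2455 with empty vector, 1150 with the Mst1r vector and 2202 with the Slpi vector. The difference from empty vector was -0.86 ± 0.12 with the Mst1r vector and -0.08 ± 0.12 with the Slpi vector, so the Mst1r vector array was 1.82-fold lower and the Slpi vector array lay within the spot SD of the control.

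Nsdhl, an enzyme of the removal of methyl groups from the sterol ring, had processed signals of 491 on the empty vector array, 233 with the Mst1r vector and 454 with the Slpi vector. It was 1.79-fold lower with the Mst1r vector, a log2 difference of -0.84 ± 0.21, and differed by -0.04 ± 0.16 with the Slpi vector. The brightest probes of Idi1 and Nsdhl both lay in the upper rows of the array, where control spots strayed.

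Hsd17b7, which reduces the keto group of sterol intermediates, had processed signals of 1458 on the empty vector array, 799 with the Mst1r vector and 1552 with the Slpi vector. The difference was -0.64 ± 0.14 with the Mst1r vector and 0.17 ± 0.12 with the Slpi vector. The Mst1r vector array was therefore the lowest of the 3, and the Slpi vector array the highest by a little more than the spot SD.

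Tm7sf2, a sterol C14-reductase, was the exception among the sterol synthesis enzymes. Its processed signal was 45.4 with empty vector, 72.0 with the Mst1r vector and 51.1 with the Slpi vector. The difference was 0.90 ± 0.42 with the Mst1r vector and 0.25 ± 0.54 with the Slpi vector. Its signals lay in the range where the spot SD is wide, and with another background correction (normexp) it was no longer 1.5-fold higher.

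The other sterol synthesis enzymes were each lowest on the Mst1r vector array. Hmgcs1, which makes the substrate of the rate-limiting reductase, had signals of 3299, 1735 and 3188 with the empty, Mst1r and Slpi vectors, and was 1.62-fold lower with the Mst1r vector. Fdps, the synthase of farnesyl diphosphate, had signals of 9294, 5138 and 7814, and was 1.54-fold lower with the Mst1r vector, with a difference of -0.17 ± 0.14 for the Slpi vector. This was the lowest Slpi vector difference of the list, and Fdps was lower still with the Mst1r vector.

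Dhcr7, the last reductase before cholesterol, had signals of 224, 124 and 221 with the empty, Mst1r and Slpi vectors, and was 1.54-fold lower with the Mst1r vector. Cyp51, the lanosterol demethylase, had signals of 1262, 715 and 1188 and was just past 1.5-fold at -0.59 ± 0.14, while Msmo1, a sterol methyl oxidase, was just short of it at -0.57 ± 0.13. The 2 early kinases Mvk and Pmvk differed by -0.52 ± 0.14 and -0.31 ± 0.12. Their products pass to Mvd, the decarboxylase, which differed by -0.43 ± 0.21 with the Mst1r vector and had the highest Slpi vector difference of the list, 0.31 ± 0.16.

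The enzymes that make and close squalene also had lower signals with the Mst1r vector. Fdft1, squalene synthase, differed by -0.46 ± 0.12, Sqle, the squalene epoxidase, by -0.50 ± 0.14 and Lss, which closes the ring, by -0.38 ± 0.14. Of the late enzymes, Ebp, a sterol isomerase, differed by -0.47 ± 0.13 and Sc5d, a desaturase, by -0.19 ± 0.12. Sc5d was the only sterol synthesis enzyme that was lower with the Mst1r vector by less than 2 spot SD.

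The regulators were split between Srebf2, which was lower with the Mst1r vector, and Srebf1 and Insig2, which were level. Of the 6 genes, 5 were lower with the Mst1r vector, 2 of them, Srebf2 and Stard4, by over 2 spot SD, and the median was -0.31. The 5, like the 29 of 32 above, include Srebf1 at only -0.001 ± 0.119. Their median with the Slpi vector was 0.03, and none was beyond 2 spot SD.

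Srebf2, the SREBP gene of sterol synthesis, had processed signals of 542 on the empty vector array, 304 with the Mst1r vector and 527 with the Slpi vector. The difference was -0.60 ± 0.16 with the Mst1r vector, which is 1.52-fold lower, and 0.04 ± 0.16 with the Slpi vector. Under median scaling, scaling over detected probes, quantile normalization and normexp, the Mst1r vector difference was short of 1.5-fold, from -0.57 to -0.50. Srebf1, the SREBP gene of fatty acid synthesis, had a processed signal of 3936, 3355 and 3774, with differences of 0.00 ± 0.12 for the Mst1r vector and 0.02 ± 0.12 for the Slpi vector. Srebf1 was thus level on the 3 arrays after scaling, and without any scaling its difference with the Mst1r vector was -0.23, where the median of all features was -0.26.

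Insig1 and Insig2 encode the proteins that hold SCAP in the endoplasmic reticulum, and Insig1 is itself an SREBP target. Insig1 had processed signals of 43.6 on the empty vector array, 27.4 with the Mst1r vector and 44.1 with the Slpi vector, a difference of -0.44 ± 0.54 and 0.09 ± 0.54. At this signal the Mst1r vector difference lay within the spot SD. Insig2 had a processed signal of 1307, 1122 and 1180, with differences of 0.01 ± 0.12 for the Mst1r vector and -0.07 ± 0.12 for the Slpi vector.

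Scap, the gene of the escort protein, had processed signals of 4017 on the empty vector array, 3011 with the Mst1r vector and 4155 with the Slpi vector, and differed by -0.19 ± 0.12 and 0.13 ± 0.13. Stard4, a carrier of cholesterol between membranes, had a processed signal of 781, 473 and 707, and differed by -0.49 ± 0.16 with the Mst1r vector and -0.06 ± 0.16 with the Slpi vector. Stard4 was 1.41-fold lower with the Mst1r vector.

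The fatty acid synthesis enzymes were lower with the Mst1r vector by less than the sterol synthesis enzymes in the median, -0.31 against -0.52. Of the 9 genes, 8 were lower and 6 by over 2 spot SD, and none was 1.5-fold lower. The median with the Slpi vector was 0.04. The difference between the groups of enzymes was not tested.

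Scd2, a desaturase that makes monounsaturated fatty acids, had processed signals of 14425 on the empty vector array, 8489 with the Mst1r vector and 13830 with the Slpi vector. The difference was -0.54 ± 0.14 with the Mst1r vector, which is 1.45-fold lower, and 0.02 ± 0.14 with the Slpi vector. Scd1, its relative and the main form in liver, had a processed signal of 884, 581 and 770, with differences of -0.38 ± 0.16 and -0.12 ± 0.16. Both desaturases were lowest with the Mst1r vector.

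Fads2, a desaturase of polyunsaturated fatty acids, had a scaled log2 level (signal less the 75th percentile) of 1.21 with empty vector, 0.75 with the Mst1r vector and 1.42 with the Slpi vector. The difference was -0.46 ± 0.16 with the Mst1r vector and 0.21 ± 0.16 with the Slpi vector. Acaca, the carboxylase at the entry of fatty acid synthesis, had a processed signal of 3493, 2402 and 3404, with differences of -0.31 ± 0.12 and 0.04 ± 0.12. The second probe of Fads2, in the lower rows, was at -0.59 ± 0.42 and -0.06 ± 0.24. By their brightest probes, Fads2 and Acaca were therefore lower on the Mst1r vector array than on both of the others.

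Of the remaining genes, Fasn, the fatty acid synthase, differed by -0.29 ± 0.08 with the Mst1r vector and Elovl6, an elongase, by -0.31 ± 0.12. Acly, which makes cytosolic acetyl-CoA, and Fads1, the partner of Fads2, differed by -0.16 ± 0.14 and -0.12 ± 0.16. Me1, an enzyme that supplies NADPH, was level at 0.02 ± 0.14. The fatty acid synthesis enzymes thus ranged from -0.54 for Scd2 to 0.02 for Me1.

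**Figure D3:**
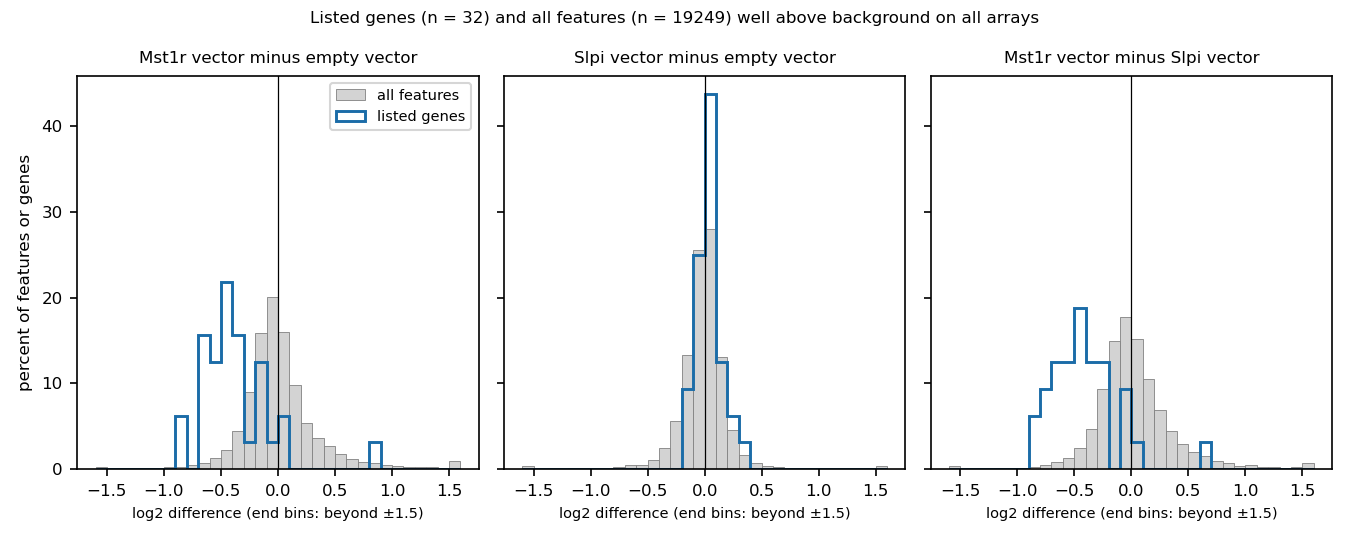
Distribution of log2 differences over the 32 listed genes (blue outline) and all 19249 features well above background on all arrays (grey), as percent of each, in 3 comparisons of arrays, with values beyond 1.5 in the end bins. The blue outline lies left of the grey in both comparisons that contain the Mst1r vector array and over it in the comparison of the Slpi vector with empty vector.

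The Mst1r vector and Slpi vector arrays were also compared with each other. This comparison shares the Mst1r vector array with the first and the Slpi vector array with the second, so it adds no independent measurement of either. The median difference, Mst1r vector minus Slpi vector, was -0.44, against -0.02 over all features, and 30 of 32 genes were lower with the Mst1r vector. At least 1.5-fold lower were 10 genes, against 2.47% of all features, and 1 gene, Tm7sf2, was at least 1.5-fold higher, against 5.73% of all features. Lower by over 2 spot SD were 24 genes, against 9.18% of all features, a share that also pools all signal levels.

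Compared with the first comparison, Msmo1, Mvk, Mvd and Fads2 were past 1.5-fold here, and Fdps and Cyp51 were not. The brightest probe of Fads2, in the upper rows, was at -0.67 ± 0.16 and its second probe, in the lower rows, at -0.53 ± 0.42, which is short of 1.5-fold. Mvd had signals of 374 with empty vector, 237 with the Mst1r vector and 439 with the Slpi vector, so it was 1.34-fold lower than with empty vector and 1.67-fold lower than with the Slpi vector. The Mst1r vector array had the lowest scaled level of the 3 arrays for 29 of 32 genes, against 44.0% of all features. It lay below both other arrays by over 2 spot SD for 21 of 32 genes, against 4.90% of all features. That share too pools all signal levels and is not matched to the listed genes.

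Other probes of the same genes gave a reading from different positions on the array. For 14 genes, at least 2 probes were well above background on all arrays. All probes of the gene were lower with the Mst1r vector than with empty vector for 11 of the 14, the others being Acly, Insig2 and Me1, and lower than with the Slpi vector for 13 of the 14. All probes were lower with the Slpi vector than with empty vector for 2 of the 14. The range of the Mst1r vector difference over the probes of a gene had a median of 0.17.

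Cyp51 and Lss had the widest ranges between their probes. The second probe of Cyp51 was at -0.99 ± 0.42, against -0.59 ± 0.14 for the brightest, and the dimmest probe of Lss was at -0.95 ± 0.42, against -0.38 ± 0.14. With the Slpi vector these dim probes were at -0.43 ± 0.24 and -0.65 ± 0.42, and both lay in the upper rows of the array. The second probe of Msmo1, in the lower rows, was at -0.76 ± 0.14, against -0.57 ± 0.13.

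**Figure D4:**
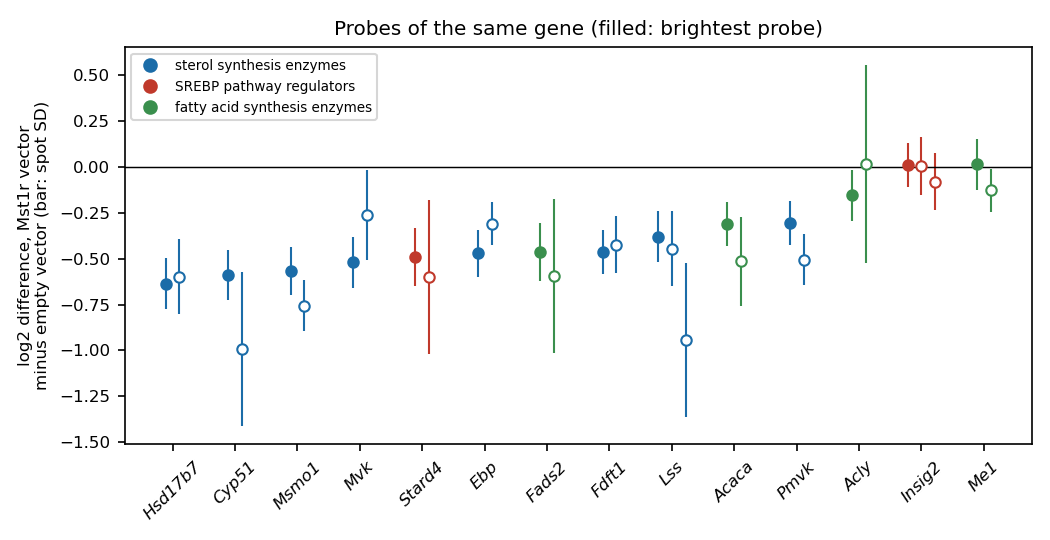
Log2 difference between the Mst1r vector and empty vector arrays for each probe of the 14 listed genes with at least 2 probes well above background on all arrays, coloured by role, with the spot SD as error bar. The brightest probe of each gene is filled, and all probes lie below 0 for 11 of the 14 genes.

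Other genes of lipid metabolism, in lists fixed beside the main one, were read in the same way. The genes of SREBP processing and degradation had a median difference of -0.04 with the Mst1r vector, with 7 of 9 lower and none 1.5-fold apart. The largest difference was that of Syvn1, a ubiquitin ligase of the endoplasmic reticulum, which was higher by 0.38 ± 0.12 (signals of 3393 with empty vector and 3755 with the Mst1r vector). With the Slpi vector, the median was -0.01 and the largest difference -0.19 ± 0.21 for Sec24a, a coat protein of transport vesicles. The transport and protease genes upstream of the SREBPs were therefore close to the median of all features.

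For the supply of acetyl-CoA and NADPH, 6 of 8 genes were lower with the Mst1r vector and the median was -0.21. Acss2, an acetyl-CoA synthetase and known SREBP target, had signals of 81.7 with empty vector, 51.0 with the Mst1r vector and 93.7 with the Slpi vector, a difference of -0.45 ± 0.42 and 0.28 ± 0.24. Of the others, named after their values were seen, Slc25a1, the citrate carrier of mitochondria, differed by -0.45 ± 0.12 with the Mst1r vector, Idh1, an NADPH-producing dehydrogenase, by -0.44 ± 0.16 and Mlxipl, a carbohydrate-responsive factor of lipogenesis, by 0.44 ± 0.14. These 3 genes lay beyond 2 spot SD, and Acss2 did not. The median with the Slpi vector was 0.08.

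For glyceride synthesis and lipid droplets, 7 of the 8 measured genes were lower with the Mst1r vector and the median was -0.17. Dgat2, which adds the last acyl chain of triglycerides, differed most, by -0.52 ± 0.14, with signals of 1190, 709 and 1133 for the empty, Mst1r and Slpi vectors. With the Slpi vector the median was 0.07 and the largest difference 0.18 ± 0.14 for Plin2, a coat protein of lipid droplets. Gpam, the first acyltransferase, was well above background with empty vector alone and was not compared, and its probe lay in row 5.

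The LXR targets and genes of cholesterol handling had a median of -0.18 with the Mst1r vector, with 7 of the 8 measured genes lower and Lpcat3, an acyltransferase of phospholipids, lowest at -0.31 ± 0.14. With the Slpi vector the median was -0.01 and Osbp, an oxysterol-binding protein, was higher by 0.89 ± 0.21, with signals of 176, 132 and 308 for the empty, Mst1r and Slpi vectors and its probe in the upper rows of the array. The genes of fatty acid oxidation had medians of -0.09 with the Mst1r vector, with 8 of the 10 measured genes lower, and 0.00 with the Slpi vector. Slc25a20, the carnitine carrier of mitochondria, was the lowest with both vectors, at -0.62 ± 0.24 and -0.26 ± 0.24, and its probe too lay in the upper rows. The medians of these lists with the Mst1r vector thus lay between that of all features and those of the sterol and fatty acid synthesis enzymes, and the differences between lists were not tested.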

How the data were processed

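Hepa1c1c7 cells with each vector were read on 1 single-colour Agilent array. The deposited values are spot intensities. Per the labels and file headers, the authors extracted them with Feature Extraction 12.0.3.1, and the array design is of build mm9. The processed signal is background-subtracted and detrended, and is not scaled between arrays. A deposited series table held the same intensities, within 0.01 (log2) of the spot mean for at least 99.94% of probes, and was used as an alternative.

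Spots marked as outliers and control spots were left out of the gene values. The log2 signals of a probe were averaged, and the 75th percentile over the non-control probes of the array was subtracted, as the study's methods do. Probes were named through RefSeq accessions (GRCm38.p6, names only; 32989 of 56605 probes). The spot SD was taken by signal level from probes printed at least 10 times, control probes included and outlier spots kept. It was 0.38 (log2) for log2 signals of 4 to 6, 0.17 for 6 to 8 and 0.06 above 14. For 8 to 10, 10 to 12 and 12 to 14, where most listed genes lay, it was 0.11, 0.08 and 0.10. These rest on only 9, 12 and 19 variances, each of 1 probe on 1 array. The limit of 2 spot SD was set after the data were seen. With 1 array per group there was no test, and the number of arrays limits the precision.

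The genes, the other lists and the motifs were chosen with earlier results of these data known. All listed genes could be named; signals were given for the SREBP and INSIG genes and, in each role, for the 4 genes with the largest difference, with more in short form. In other lists, the gene with the largest difference for each vector was named. Alternatives were other scalings (none, median, detected probes, spike-ins), normexp background with offset 50 (limma 3.58.1, R 4.3.3, on median spot signals, as no mean spot signals were available), the lower rows alone, all probes of a gene, a signal over 50, outlier spots kept, the series table and, added after seeing the data, quantile normalization. Scripts ran in Python 3.11.15 and were checked on simulated data. No replicate could be left out.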

Additional observations from a re-analysis of the deposited data

Results flagged for a closer look

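Control probes for ERCC spike-in RNA that were dark on most of their spots were over a processed signal of 50 on part of the spots in the upper rows of the arrays. The share was 2.68% of 934 spots on the empty vector array, 4.01% of 922 on the Mst1r vector array and 2.82% of 922 on the Slpi vector array, with a brightest spot of 207, 289 and 481, respectively. In the remaining rows, 0, 2 and 1 spots were over 50. These spots gave no value in any comparison of genes, though control probes entered the spot SD. They were listed here because they carry a signal where none is due. Their part in the values of Idi1, Nsdhl, Msmo1, Acaca, Elovl6, Fads1 and Fads2, whose brightest probes lie in these rows, was not tested gene by gene; the second probes of Msmo1, Acaca and Fads2, in the remaining rows, gave -0.76, -0.51 and -0.59 with the Mst1r vector against -0.57, -0.31 and -0.46. For Fads2 the second probe gave -0.06 with the Slpi vector against 0.21.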

How the results depend on the processing

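The median difference of the listed genes with the Mst1r vector was below 0 under every alternative run, from -0.68 to -0.42 against empty vector and from -0.59 to -0.31 against the Slpi vector, and 28 to 31 and 27 to 31 of 32 genes were lower, with 25 and 26 of 28 in the lower rows alone and 28 and 29 of 31 with a signal over 50. Less the median of all features, it ranged from -0.44 to -0.40 and from -0.47 to -0.39. With the Slpi vector against empty vector the sign followed the scaling: the median was 0.20 under median scaling, with 1 of 32 lower, and -0.21 under spike-in scaling, with 30 of 32 lower, which moved the median of all features to 0.16 and -0.24, and less that median it ranged from 0.02 to 0.03. Without scaling, where the median of all features was -0.26 for the Mst1r vector against empty vector, the list median was -0.68, with 20 genes at least 1.5-fold and 2 at least 2-fold lower; against the Slpi vector it was -0.59, with 16 genes at least 1.5-fold lower. Under spike-in scaling 13 and 5 genes, and under normexp 5 against empty vector, were at least 1.5-fold lower. Under median scaling, scaling over detected probes and quantile normalization, 6 genes were so against empty vector. Tm7sf2 was no longer 1.5-fold higher (0 genes) under normexp in both comparisons, and against the Slpi vector also without scaling, under median scaling and under quantile normalization. Under normexp the median of the regulators was -0.11 against empty vector and -0.20 against the Slpi vector. Single array spots limit what dim genes such as Insig1 and Tm7sf2 can show. No paired analysis was possible because each group had 1 array.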
